A study of Mus musculus with 113 samples.

Results

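The *Atf4* response and amino acid synthesis were described by 10 genes across mouse embryonic stem cells (mESCs) as they differentiated towards neural progenitors: *Atf4*, *Asns*, *Psat1*, *Phgdh*, *Shmt2*, *Trib3*, *Ddit3*, *Chac1*, *Eif4ebp1* and *Ass1*. All 10 of the 10 listed symbols were found in each of the 4 gene tables, which hold 13541 genes for cell populations, 11449 for single cells, 13738 for the adherent culture and 23107 for the E14 cells. The genes were chosen by name with earlier results of these data in view, among them the correlation of *Ass1* with time in the SFEB populations and of *Eif4ebp1* with time in the single cells. The SFEB values are therefore given as a description with no test. The earlier results at hand gave no adherent or E14 value for a member, and the tests below are on those samples, although the whole list was drawn up with results of the study known.

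*Atf4* encodes a bZIP transcription factor whose protein is made more efficiently when the translation initiation factor eIF2alpha is phosphorylated, as happens when amino acids run short or unfolded proteins collect in the endoplasmic reticulum (ER). Its protein binds C/EBP-ATF response elements, usually as a heterodimer, and turns on genes that make, import and charge amino acids. Prolonged signalling also turns on *Ddit3*, *Trib3* and *Chac1*. Mouse ES cells are known for a high demand for one-carbon units, which serine and glycine metabolism supplies.

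R1 mESCs were differentiated either as aggregates that float in medium free of serum (SFEB) or as an adherent monoculture, after a single passage without feeder cells, and the protocols replate the cells on day 6. SFEB cell populations comprised a first series of 14 libraries from 0 to 142 h and a parallel series of 8 libraries from 0 to 216 h, with 1 library per time. From the 8 times of the parallel series, 64 single cells were sequenced, 8 per time. The adherent monoculture gave 15 libraries from 0 to 216 h, again 1 per time. WT E14 mESCs and 1 *Fyn* KO clone, in which a deletion removes the start of the *Fyn* coding sequence, were sequenced at day 0 and day 4 of neural differentiation with 3 replicates each. The labels do not say whether the E14 cells were grown as SFEB or as a monolayer, nor whether replicates were separate cultures, so p-values measure the spread between these libraries, which may be technical.

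The deposited values carry no read counts, so the depth of each library is not given here, although the study states a minimum for the single cells and the parallel populations. FPKM are fragments scaled to transcript length and to the mapped total of the library. Markers of ES cells summed to 2210 FPKM at 0 h and 221 FPKM at 142 h of the first SFEB series, and 6 neural progenitor markers summed to 32.0 and 813 FPKM. In E14 cells the progenitor sum was 23.3 to 182 FPKM in WT and 10.1 to 31.2 FPKM in KO libraries at day 4, against 2.09 to 11.9 FPKM at day 0. The 10 fibroblast (feeder) markers summed to 823 FPKM at 0 h of the first SFEB series, 849 FPKM at 0 h of the parallel series and 363 FPKM at 0 h of the adherent culture. In E14 libraries the same sum was 2.52 to 14 FPKM. In such bulk libraries fewer cells of a type and less RNA per cell cannot be told apart.

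The promoter windows of the members differ in whether they hold the motif searched here for the core of the C/EBP-ATF response element. The matching stretches are shown because this element is the textbook site of *Atf4* action. The 8-letter motif TGATGNAA was searched on both strands in the RefSeq promoter table of build GRCm38.p6, which spans 250 bases before to 50 after each gene's start. Of 32851 promoters 3.97% held it. Of the 10 members 9 matched the RefSeq entries (all but *Eif4ebp1*), and 3 members held the motif. Capitals mark the match, and each run is written along the gene's own strand.
Asns (chr6:7693210-7693289, minus strand, first motif base at -23): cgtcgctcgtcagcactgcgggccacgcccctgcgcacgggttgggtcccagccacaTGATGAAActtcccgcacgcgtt
Chac1 (chr2:119351012-119351091, plus strand, first motif base at -193): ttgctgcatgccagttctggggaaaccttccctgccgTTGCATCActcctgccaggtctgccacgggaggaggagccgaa
Trib3 (chr2:152344028-152344057, minus strand, first motif base at 15, just inside the transcript): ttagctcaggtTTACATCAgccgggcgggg
The match in *Asns* reads along the gene, and those in *Chac1* and *Trib3* read as the reverse complement. The windows of *Atf4*, *Psat1*, *Phgdh*, *Shmt2*, *Ddit3* and *Ass1* did not hold these letters. Sites outside the windows or spelled otherwise were not searched.

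On the build of the R1 tables (mm9, NCBIM37, GENCODE M1 annotation), *Atf4* lies at chr15:80085614-80087970 on the plus strand and *Asns* at chr6:7625169-7643254 on the minus strand. *Phgdh* lies at chr3:98117093-98143913 (minus), *Trib3* at chr2:152163158-152169768 (minus), *Chac1* at chr2:119176965-119180117 (plus), *Eif4ebp1* at chr8:28370799-28386128 (plus) and *Ass1* at chr2:31325727-31376192 (plus). *Psat1* at chr19:15979168-16021827 on the minus strand overlaps the pseudogene *Gm3329*. *Ddit3* spans chr10:126727830-126733344 on the plus strand and overlaps *Mars*, a tRNA synthetase gene on the other strand. *Shmt2* at chr10:126954195-126959491 on the minus strand overlaps *Ndufa4l2* likewise. The library kit does not mark strand, so reads from the shared stretches cannot be assigned by strand.

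In the SFEB populations the regulator *Atf4* was highest within the first hours. In the first series its level was 54.9 FPKM at 0 h, 80.7 at 1 h and 119 at 2 h, then 50.2 at 8 h, and it ended at 26.3 FPKM at 142 h. The parallel series started at 77.7 FPKM, was at 39.5 by 9 h and lay between 32.7 and 47.7 FPKM from 38 h onwards. *Ddit3*, the transcription factor CHOP, peaked at 1 h with 15.3 FPKM against 10.4 at 0 h, was lowest at 34 h with 2.58 and returned to 6.70 at 142 h. Its late return was also present in the parallel series, where it was 2.61 FPKM at 84 h, 7.70 at 144 h and 9.52 at 216 h. In both series *Ddit3* thus went through a low in the middle of the course.

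In the first series *Asns*, *Ass1* and *Shmt2* ended low, whereas *Phgdh* and *Psat1* ended near their starting levels. *Asns*, which makes asparagine, was at 143 FPKM at 0 h and 145 at 2 h, and then at 78.3 at 22 h, 38.1 at 42.5 h and 34.4 at 142 h. The parallel series went from 164 FPKM at 0 h to 32.4 at 216 h, with 71.8 at 144 h in between. *Ass1*, the argininosuccinate synthase of arginine synthesis, had the widest range of the 10 members on log2(FPKM + 1) in the first series, from 49.1 FPKM at 8 h to 1.60 at 142 h, and was 22.8-fold higher at 0 h than at 142 h. In the parallel series it ran from 43.1 FPKM at 9 h to 1.81 at 216 h. *Shmt2*, the mitochondrial enzyme that passes one-carbon units from serine, was 60.8 FPKM at 0 h, 72.9 at 1 h and 31.2 at 142 h.

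*Phgdh* and *Psat1* catalyse successive steps from a glycolytic intermediate to serine. *Phgdh* was 88.8 FPKM at 0 h, lowest at 56.2 at 22 h, and 106 at 103 h and 95.4 at 142 h. *Psat1* was 130 FPKM at 0 h, lowest at 78.4 at 42.5 h, and 113 at 142 h. In the parallel series *Psat1* did not come back, with 164 FPKM at 0 h, 88.7 to 106 from 9 to 144 h and 64.4 at 216 h. *Phgdh* was there at 82.5 FPKM at 0 h, 48.5 at 9 h, 84.5 at 144 h and 63.3 at 216 h. The return of *Psat1* was thus seen in the first series alone.

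The 3 other effectors also peaked early in the first series. *Trib3*, a pseudokinase that dampens signalling, was 9.79 FPKM at 0 h, 14 at 1 h and 0.310 at 142 h. *Chac1*, which degrades glutathione, was 3.43 FPKM at 0 h, 6.14 at 1 h and 1.80 at 2 h, and stayed between 0.624 and 1.78 FPKM from 8 h on. *Eif4ebp1*, which encodes the cap-binding repressor 4E-BP1, was 256 FPKM at 0 h, reached 401 at 2 h, held at 317 at 34 h and was 49.2 at 142 h. On this per-length scale the level of *Eif4ebp1* was the highest of the 10 members up to 103 h of the first and 144 h of the parallel series, and it lay below *Psat1* at 126, 142 and 216 h.

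On log2(FPKM + 1), 6 of the 10 members were at least 2-fold lower at 142 h than at 0 h of the first series, against a background of 14.2% of 13115 expressed genes. In the parallel series 7 of 10 were at least 2-fold lower at 216 h than at 0 h, with a background of 14.3%. Set against the 0 h library of the first series, the 216 h library had 4 of 10 members at least 2-fold lower (13% of all genes), with *Chac1* at -0.84 in place of -1.75. The 142 h library set against the 0 h library of the parallel series had 7 (14.5%). The median difference was -1.24 for the members and 0.12 for all genes in the first series, and -1.54 and 0.08 in the parallel series. From 0 to 1 h of the first series all 10 members were higher, as were 59.9% of all genes. The fibroblast sum of the first series was 823 FPKM at 0 h, 752 at 1 h, 572 at 2 h, 358 at 8 h, 56.5 at 34 h and 33.2 at 42.5 h. The sum of the 3 endoderm markers present was 1.37 FPKM at 0 h and 18.9 FPKM at 216 h of the parallel series, and the part of both sums in the levels of the members was not tested.

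**Figure D1:**
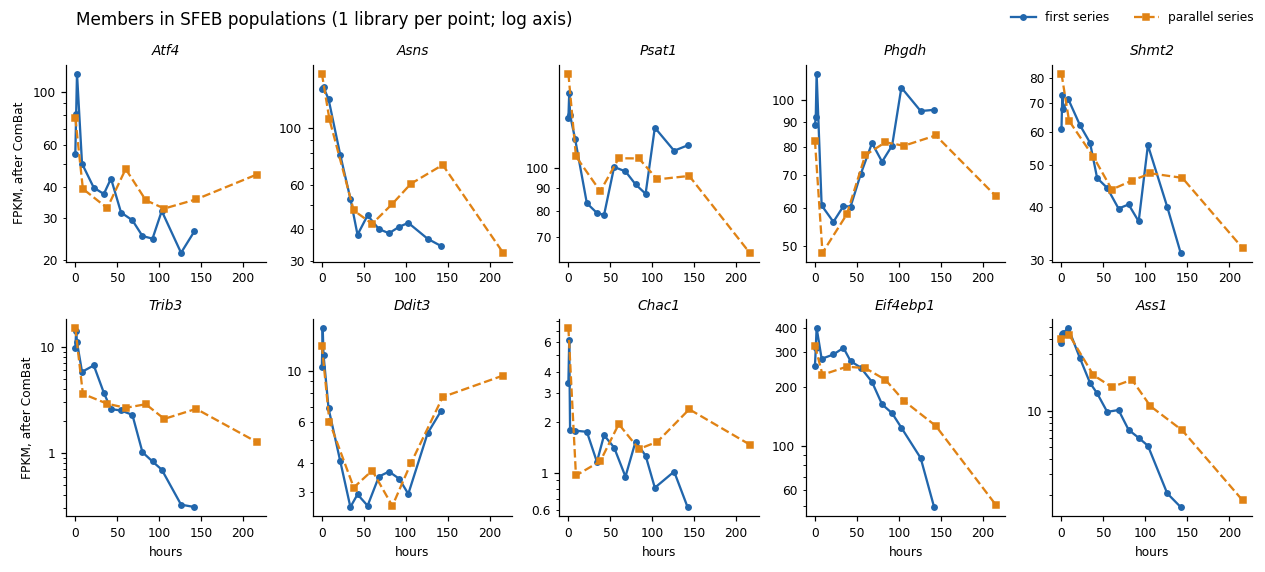
FPKM after ComBat (log axis) of the 10 members against hours of SFEB differentiation in the first series (14 libraries) and the parallel series (8 libraries), 1 library per point. *Trib3*, *Eif4ebp1* and *Ass1* end at 0.310, 49.2 and 1.60 FPKM at 142 h, whereas *Phgdh* ends at 95.4 and *Ddit3* turns upwards after 34 h.

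In single cells of the parallel series' times *Eif4ebp1*, *Ass1* and *Shmt2* were lower late in the course, and *Atf4* spread widely at all times. Levels are log10(RPKM + 1) after quantile normalization, and the labels name no separate cultures for the 8 cells of a time, so these were treated as 1 sample and no test was made. Of the 8 cells of 216 h, the cell numbered 16 stood apart from the others in its markers. Its ES cell markers summed to 1849 RPKM, against 11.6 to 160 RPKM in the other 7, and its neural progenitor markers to 1.52 RPKM, against 113 to 1056 RPKM. *Eif4ebp1* had the tightest values at the start, from 2.39 to 3.02 with a median of 2.79 at 0 h, and spread from 0.538 to 2.44 with a median of 1.13 at 216 h. The 2.44 belonged to the cell numbered 16, which was also the highest in *Asns*. Without it the other 7 cells of 216 h reached 1.78 and lay below all cells of 0 h for *Eif4ebp1*. *Ass1* ran from 1.47 to 2.59 (median 1.98) at 0 h, and from 0 to 0.488 (median 0.235) at 216 h. The cells of these 2 times did not overlap for *Ass1*. *Eif4ebp1* was chosen with its correlation with time in these cells in view, and *Ass1* with its correlation in the SFEB populations. Their separation here is thus no independent result.

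*Asns* lay between 0.8 and 2.96 (median 2.74) at 0 h and between 0.262 and 2.36 (median 0.552) at 216 h, so that the ranges overlapped although only 2 of 8 cells exceeded 10 RPKM at 216 h, against 7 of 8 at 0 h. Without the cell numbered 16, the *Asns* values of 216 h reached 1.87, and 1 of 7 cells exceeded 10 RPKM. *Shmt2* went from a median of 2.35 (1.22 to 2.59) at 0 h to 0.543 (0.161 to 1.70) at 216 h. Most of that difference came late, with means of 2.19 ± 0.735 at 60 h, 1.32 ± 0.671 at 106 h and 0.850 ± 0.283 at 144 h (SD, n = 8 cells).

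*Atf4* transcripts differed widely between cells of each time. Its values ran from 0.308 to 3.03 at 0 h and from 0.560 to 2.92 at 216 h, and the means of all 8 times lay between 1.16 and 2.00. *Phgdh* was similar, with means between 1.48 and 2.25 at all times. *Ddit3* was at 0 in 7 of 8 cells at 106 h and in 7 of 8 at 144 h, whereas all 8 cells of 216 h were above 0, from 0.253 to 2.75 with a median of 0.866. *Chac1* was at 0 in 7 of 8 cells at 216 h, and *Trib3* in 5 of 8.

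Between 216 h and 0 h, 9 of 10 members had a mean at least 2-fold lower (all but *Ddit3*), against 18.5% of 11449 genes. Without the cell numbered 16 there were again 9, against 19.8% of all genes, and the difference was -1.8 in place of -1.59 for *Asns* and -1.66 in place of -1.49 for *Eif4ebp1*. The lower mean of *Phgdh* at 216 h (difference -0.407) depended on the averaging, since the log10 of the mean RPKM + 1 was 0.260 higher there. The median number of genes above 0 per cell ranged from 6145 at 144 h to 8972 at 0 h. The 1 endoderm marker present in the table of cells had a mean of 0 RPKM at 0 h and 55.9 RPKM at 216 h, and the part of both in the low values was not tested. After centring on each time's mean, the correlation of *Atf4* with the other members over the 64 cells lay between -0.111 for *Ddit3* and 0.241 for *Phgdh*.

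**Figure D2:**
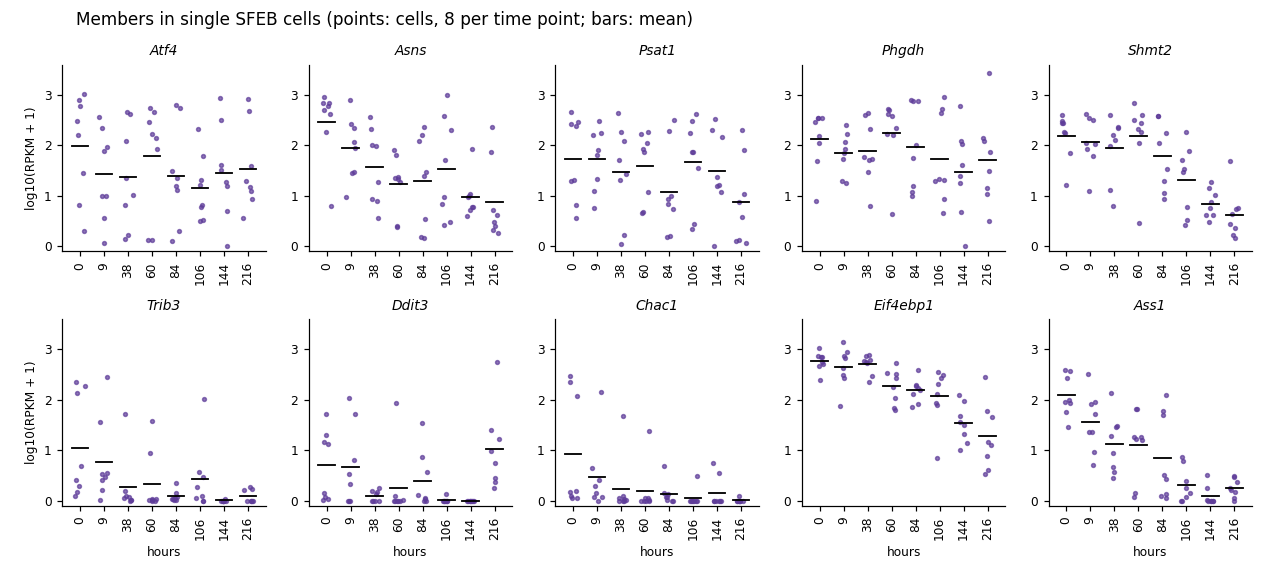
Levels of the 10 members, log10(RPKM + 1), in 64 single SFEB cells by hours of differentiation, with 8 cells (points) and their mean (bar) per time. *Ass1* cells of 216 h (0 to 0.488) lie below all cells of 0 h (1.47 to 2.59), while *Atf4* spans more than 2 units at most times.

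The adherent monoculture gave the same genes in another culture format. With time 8 of the 10 members fell, against a background of 24.0% of 12879 genes called lower and 35.8% called higher, and no member rose. Under quantile normalization the split over all genes turned from 4612 higher and 3089 lower to 3641 higher and 3956 lower, and the same 8 members fell. Slopes are in log2(FPKM + 1) per day, from limma with Benjamini-Hochberg adjustment over all genes. The steepest was *Trib3*, at 37.8 FPKM at 0 h, a median of 10.4 over the 15 libraries and a range from 2.19 to 45.8, with a slope of -0.51 ± 0.08 (SE, adjusted p = 3.89e-05). *Ass1* ran from 46.1 to 4.91 FPKM (median 14.1), with a slope of -0.42 ± 0.05 (adjusted p = 3.17e-06). All 6 libraries up to 41.5 h were above 35 FPKM for *Ass1*, and all libraries from 80.5 h were below 10.

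*Eif4ebp1* was between 456 and 621 FPKM up to 41.5 h, and 104 FPKM at 216 h (median 327, slope -0.30 ± 0.03, adjusted p = 2.33e-06). *Shmt2* was between 155 and 198 FPKM up to 41.5 h and between 49.4 and 83.2 FPKM after it (slope -0.25 ± 0.04, adjusted p = 6.78e-05). For *Shmt2* the largest difference between neighbouring times was thus that between 41.5 and 53.5 h. *Chac1* ranged from 1.92 to 42.2 FPKM (median 15.3, slope -0.30 ± 0.09, adjusted p = 0.00708).

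*Atf4* itself ranged from 38.4 FPKM at 101.5 h to 161 at 20.5 h (median 96.0, slope -0.18 ± 0.05, adjusted p = 0.00543). *Asns* was 199 FPKM at 0 h, 243 at 41.5 h and 70.8 at 216 h (slope -0.16 ± 0.04, adjusted p = 0.00111), and *Psat1* was 276, 381 and 144 FPKM at those times (slope -0.11 ± 0.03, adjusted p = 0.00237). *Phgdh* ran from 106 to 228 FPKM with a slope of -0.05 ± 0.03 that did not pass (limma adjusted p = 0.0923), although it passed without the 144 h library (adjusted p = 0.0352). *Ddit3* did not pass either (slope -0.09 ± 0.06, limma adjusted p = 0.179). It was 13.3 FPKM at 0 h, 30.2 at 2.5 h, 3.89 at 80.5 h and 11.6 at 216 h, and without the 216 h library its slope was -0.19 (adjusted p = 0.0179). With both the 144 and the 216 h libraries left out, the slopes were -0.29 for *Atf4*, -0.24 for *Ddit3* (limma adjusted p = 0.00980) and -0.48 for *Chac1*.

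At 3 of the steps between neighbouring adherent times, all 10 members went the same way. They were higher at 41.5 h than at 35.5 h (median difference 0.46 on the log2 scale), as were 60.6% of all genes. All 10 were lower at 53.5 h than at 41.5 h (median -0.98), as were 51.8% of all genes, and all 10 were lower at 80.5 h than at 68.5 h (median -0.74), as were 45.6% of all genes. Each of these steps rests on 1 library per time. From 125.5 to 140.5 h 9 members were higher, as were 58.2% of all genes, and *Asns* then went from 86.1 FPKM at 140.5 h to 167 at 144 h. The fibroblast sum went from 363 to 49.2 FPKM over the adherent course. It was 108 FPKM at 35.5 h, 105 at 41.5 h, 63.9 at 53.5 h, 66.3 at 68.5 h and 67.3 at 80.5 h. The sum of 4 endoderm markers was 1.05 FPKM at 0 h and 28.6 FPKM at 216 h. The part of both sums in the slopes and steps was not tested.

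**Figure D3:**
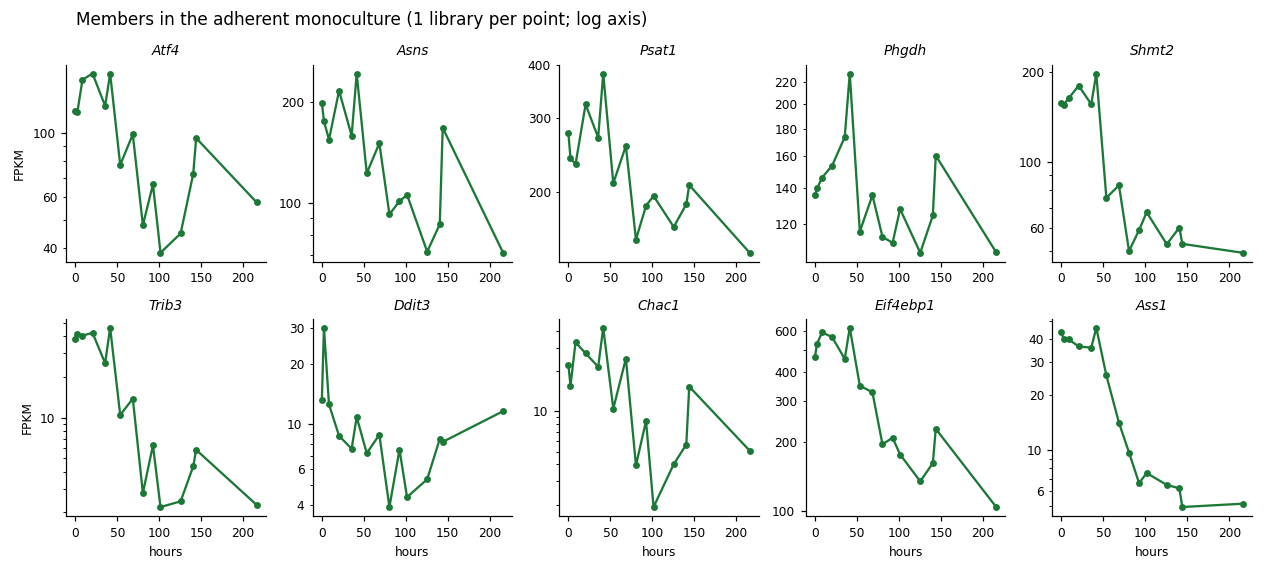
FPKM (log axis) of the 10 members against hours in the adherent monoculture, 1 library per point (15 libraries). All 10 members step down between 41.5 and 53.5 h, from 198 to 75.6 FPKM for *Shmt2*, and *Ddit3* peaks at 30.2 FPKM at 2.5 h.

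In WT E14 cells 7 of 10 members fell from day 0 to day 4, against 10.3% of the 12257 genes tested that fell and 15.5% that rose. In *Fyn* KO cells 7 of 10 fell as well, against 7.56% that fell and 11.8% that rose. No member rose in either. Under quantile normalization the split over all genes went from 1904 higher and 1262 lower to 1576 and 1532 in WT cells, and from 1443 and 927 to 1226 and 1176 in KO cells. The median difference of the members was -1.28 in WT and -1.64 in KO cells on log2(FPKM + 1), against 0.08 and 0.05 for all genes. All adjusted p-values below are from limma with Benjamini-Hochberg adjustment over all genes tested.

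*Atf4* had 111, 176 and 205 FPKM in WT replicates 1, 2 and 3 at day 0 and 51.1, 30.4 and 65.5 at day 4. The KO libraries had 185, 205 and 156 FPKM at day 0 and 40.9, 63.0 and 40.4 at day 4. Neither genotype's days overlapped, and the log2 change was -1.74 ± 0.29 (SE, adjusted p = 0.00206) in WT and -1.92 ± 0.29 (adjusted p = 0.00173) in KO cells.

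*Asns* had 266, 456 and 506 FPKM in WT cells at day 0 and 63.9, 116 and 67.9 at day 4. The KO libraries had 478, 504 and 226 FPKM at day 0 and 52.7, 78.5 and 94.7 at day 4. The days were separate in both genotypes despite the low value of KO replicate 3 at day 0, with log2 changes of -2.29 ± 0.36 (adjusted p = 0.00152) and -2.36 ± 0.36 (adjusted p = 0.00173).

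*Shmt2* had the smallest adjusted p of the members in both genotypes. Its levels were 77.1, 108 and 116 FPKM in WT and 157, 189 and 164 FPKM in KO cells at day 0. At day 4 they were 43.3, 34.6 and 44.3 FPKM in WT and 37.3, 42.3 and 49.1 FPKM in KO cells. All KO libraries lay above those of WT at day 0, as for 10.5% of all genes. Limma did not call that difference (adjusted p = 0.101), and the genotypes overlapped at day 4. *Shmt2* fell by 1.27 ± 0.17 (adjusted p = 0.000664) in WT and by 1.97 ± 0.17 (adjusted p = 0.000147) in KO cells. The difference between these changes was not called either (adjusted p = 0.997).

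*Psat1* had 97.8, 162 and 186 FPKM in WT cells at day 0 and 105, 65.8 and 68.6 at day 4. The KO values were 200.4, 237 and 245 FPKM at day 0 and 78.9, 94.5 and 110.2 at day 4. The WT days overlapped and the KO days did not, with log2 changes of -0.87 ± 0.24 (adjusted p = 0.0221) and -1.27 ± 0.24 (adjusted p = 0.00507). The WT call was lost without WT day 0 replicate 2 or 3 or WT day 4 replicate 2 or 3 (adjusted p from 0.0708 to 0.0886) and in the fit on the WT libraries alone (0.0569).

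*Phgdh* was the member with opposite signs. Its levels in WT cells were 57.0, 66.2 and 60.0 FPKM at day 0 and 80.8, 78.9 and 81.2 at day 4, with all day 4 libraries above those of day 0. In KO cells they were 76.7, 95.5 and 150 FPKM at day 0 and 60.2, 67.0 and 91.7 at day 4, with overlapping days. Neither change passed the test, at 0.39 ± 0.22 (adjusted p = 0.204) in WT and -0.52 ± 0.22 (adjusted p = 0.115) in KO cells. That KO value was -0.25 without KO day 0 replicate 3, and the WT value ranged from 0.35 to 0.45 with single libraries left out.

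*Trib3* had 10.5, 19.0 and 33.9 FPKM at day 0 and 3.30, 2.35 and 3.89 at day 4 in WT cells. The KO libraries held 29.0, 40.6 and 47.7 FPKM at day 0 and 4.40, 9.45 and 8.63 at day 4. *Trib3* fell by 2.28 ± 0.37 (adjusted p = 0.00190) in WT and by 2.27 ± 0.37 (adjusted p = 0.00266) in KO cells, and the days did not overlap in either.

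*Chac1* had 2.14, 9.17 and 14.9 FPKM at day 0 and 3.55, 0.958 and 2.85 at day 4 in WT cells, where the days overlapped. Its KO levels were 19.0, 25.1 and 32.6 FPKM at day 0 and 3.34, 5.27 and 5.84 at day 4. The change passed in KO cells (-2.19 ± 0.51, adjusted p = 0.0129) and did not in WT cells (-1.30 ± 0.51, adjusted p = 0.0820). The WT value ran from -0.80 without WT day 0 replicate 3 to -1.97 without WT day 0 replicate 1.

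*Ddit3* had 6.32, 18.8 and 17.7 FPKM at day 0 and 10.2, 4.85 and 4.67 at day 4 in WT cells. In KO cells it had 19.2, 38.0 and 14.5 FPKM at day 0 and 7.79, 5.44 and 11.8 at day 4, where the days did not overlap. Neither change passed, at -0.95 ± 0.45 (adjusted p = 0.141) in WT and -1.36 ± 0.45 (adjusted p = 0.0550) in KO cells.

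*Eif4ebp1* had 373, 511 and 583 FPKM at day 0 and 175, 290 and 269 at day 4 in WT cells. In KO cells it had 363, 392 and 416 FPKM at day 0 and 183, 187 and 215 at day 4. The days did not overlap in either genotype, and the changes were -1.0 ± 0.20 (adjusted p = 0.00464) in WT and -1.0 ± 0.20 (adjusted p = 0.00614) in KO cells.

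*Ass1* had 32.4, 40.5 and 41.9 FPKM at day 0 and 4.61, 15.4 and 10.8 at day 4 in WT cells. In KO cells it had 14.8, 50.3 and 21.6 FPKM at day 0 and 15.1, 19.7 and 10.7 at day 4. It fell by 1.93 ± 0.44 (adjusted p = 0.00900) in WT cells, while in KO cells the days overlapped and the change of -0.75 ± 0.44 did not pass (adjusted p = 0.252). That KO value rested on single libraries, at -0.27 without KO day 0 replicate 2 and -1.12 without KO day 0 replicate 1.

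WT day 0 replicate 1 held the lowest of the 3 WT day 0 values for all 10 members, and the lowest for 41.9% of all genes. Without this library *Chac1* (-1.97, adjusted p = 0.00530) and *Ddit3* (-1.42, adjusted p = 0.0337) also passed in WT cells, so that 9 of 10 members fell, against 10.5% of all genes. Summed FPKM ranged from 525639 to 909369 between the E14 libraries. With the libraries scaled to equal totals without small RNA genes, a setting added after seeing the data, 7 members fell in WT and 8 in KO cells, against 11.2% and 10.3% of all genes that fell, and the KO split over all genes was 1246 higher and 1266 lower. The fibroblast sum was higher at day 4 (5.0 to 14 FPKM) than at day 0 (2.52 to 8.09 FPKM). The sum of 4 neuron markers went from 24.0 to 86.0 FPKM at day 0 to 53.6 to 96.9 FPKM at day 4 in WT cells, and from 121 to 203 to 47.4 to 63.2 FPKM in KO cells. The sum of 4 endoderm markers went from 1.24 to 4.32 FPKM at day 0 to 3.09 to 30 FPKM at day 4 in WT cells, and from 0.491 to 2.27 to 0.72 to 6.4 FPKM in KO cells. The sum of ES cell markers was 3500 to 4290 FPKM at day 0 and 931 to 2270 FPKM at day 4 in WT cells. In KO cells it was 3950 to 4780 FPKM at day 0 and 1880 to 2520 FPKM at day 4. The part of these sums in the changes was not tested.

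**Figure D4:**
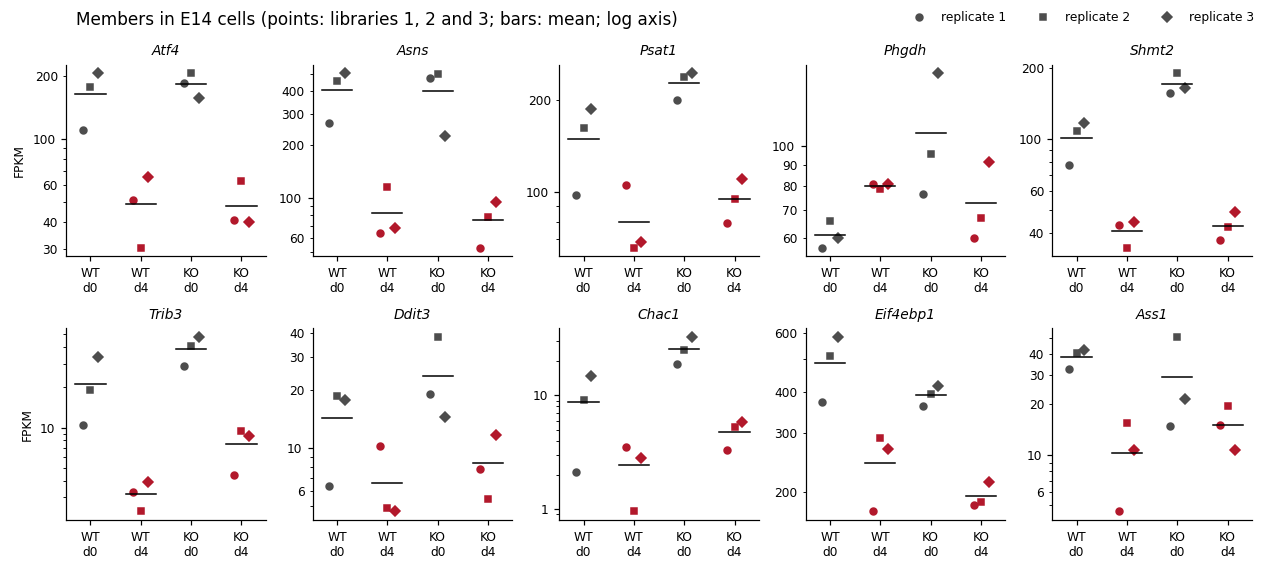
FPKM (log axis) of the 10 members in the 12 E14 libraries, with symbols for replicates 1 to 3 and a bar for the group mean. WT day 0 replicate 1 (circles) is the lowest of its group in every panel, and *Trib3* at day 4 (2.35 to 9.45 FPKM) lies below all day 0 libraries (10.5 to 47.7 FPKM).

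**Figure D5:**
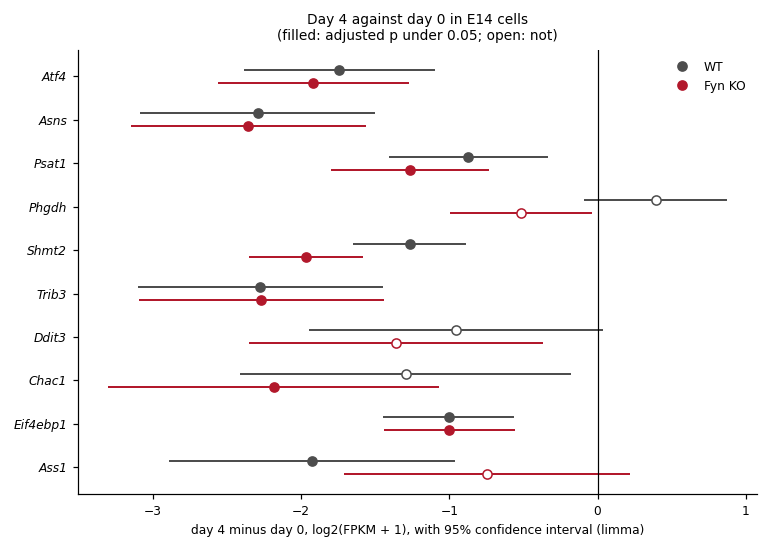
Day 4 minus day 0 on log2(FPKM + 1) with 95% confidence intervals from limma for WT and *Fyn* KO cells, filled where the adjusted p is under 0.05. The 7 members filled in each genotype pass the test and lie left of 0, and *Phgdh* is open in both, at 0.39 in WT and -0.52 in KO cells.

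Whether *Fyn* KO alters these genes was asked at each day. *Fyn* itself had 2.74 to 4.00 FPKM in WT and 0.598 to 1.10 FPKM in KO cells at day 0, and 4.54 to 9.44 and 1.13 to 1.58 FPKM at day 4. Its difference passed at day 4 (-1.74 ± 0.24, limma adjusted p = 0.0193) and not at day 0 (-1.29 ± 0.24, limma adjusted p = 0.0601), with no overlap between genotypes at either day. The KO is a single clone, so the genotype and the clone cannot be told apart.

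At day 0 limma called 0 of 10 members between KO and WT cells, against 0.171% of all genes called. At an unadjusted p under 0.05 there were 5 members, against 14.6% of all genes. Those 5 were all higher in KO cells: *Shmt2* by 0.77 (95% interval 0.39 to 1.15, adjusted p = 0.101), *Phgdh* by 0.75 (0.28 to 1.22, adjusted p = 0.152), *Chac1* by 1.71 (0.59 to 2.82, adjusted p = 0.159), *Psat1* by 0.66 (0.13 to 1.19, adjusted p = 0.245) and *Trib3* by 0.97 (0.16 to 1.79, adjusted p = 0.261). All 3 KO libraries lay above all 3 WT libraries for 4 members, *Shmt2*, *Phgdh*, *Psat1* and *Chac1*, as they did for 10.5% of all genes. Without WT day 0 replicate 1, the lowest of its group for all members, the differences were 1.03 for *Chac1*, 0.57 for *Trib3* and 0.38 for *Psat1*. Then 4 members had an unadjusted p under 0.05, *Shmt2* (0.59), *Phgdh* (0.70) and *Chac1* higher and *Eif4ebp1* (-0.48) lower in KO cells, against 15.5% of all genes. The sum of 4 neuron markers was 121 to 203 FPKM in KO and 24.0 to 86.0 FPKM in WT libraries at day 0, and its part in these differences was not tested. Without KO day 0 replicate 3 *Phgdh* was 0.48 higher. The other 5 members differed by -0.56 (*Ass1*) to 0.72 (*Ddit3*), and both ends rested on single libraries. *Ass1* was at -0.20 without KO day 0 replicate 1 and at -1.04 without KO day 0 replicate 2, and *Ddit3* was at 0.26 without WT day 0 replicate 1 and at 0.34 without KO day 0 replicate 2. 

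At day 4 limma called 0 members, against 0.0734% of all genes. At an unadjusted p under 0.05 there was 1 member, *Trib3*, against 12.1% of all genes. *Trib3* was 0.98 higher in KO cells (95% interval 0.16 to 1.80, adjusted p = 0.322), with 4.40 to 9.45 against 2.35 to 3.89 FPKM. The interval for *Atf4* at day 4 ran from -0.63 to 0.65 and that for *Shmt2* from -0.30 to 0.45.

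The difference between the KO and the WT change from day 0 to day 4 was called for 0 members and for 0% of all genes, with 537 genes and 2 members at an unadjusted p under 0.05. Those members were *Phgdh* (-0.91, 95% interval -1.58 to -0.24) and *Shmt2* (-0.70, -1.23 to -0.17), both with an adjusted p of 0.997. For *Ass1*, which passed in WT cells alone, the difference was 1.18 (-0.18 to 2.54, adjusted p = 0.997), and for *Chac1*, which passed in KO cells alone, it was -0.89 (-2.47 to 0.68, adjusted p = 0.997). Without WT day 0 replicate 1 the difference of *Chac1* was -0.22, without WT day 0 replicate 3 it was -1.39, and that of *Ass1* was 0.74 without WT day 4 replicate 1. With the replicate number as a block in the limma fit, the interval for *Ass1* was 0.21 to 2.15 (adjusted p = 0.813). That for *Chac1* was then -2.31 to 0.53 (adjusted p = 0.894). At the adjusted threshold neither was thus shown to differ between genotypes.

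The members belong to wider pathways, which were counted in the same fits as lists that include the members. Beside these counts, 10.3% of all genes fell and 15.5% rose in WT cells, 7.56% fell and 11.8% rose in KO cells, and 24.0% fell and 35.8% rose in the adherent culture. Of 12 genes of serine, glycine and one-carbon synthesis, 5 fell and 1 rose in WT cells (median -0.46), and 9 fell in KO cells (median -0.71). The medians over all genes tested were 0.08 in WT and 0.05 in KO cells. *Mthfd2*, a mitochondrial folate enzyme, fell by 1.29 ± 0.32 in WT cells and *Amt*, of the glycine cleavage system, by 1.26 ± 0.21. *Gldc* of that same system rose by 1.89 ± 0.36. In KO cells *Aldh1l2*, another mitochondrial folate enzyme, fell by 1.69 ± 0.24, and it was the only gene of this list that differed between genotypes, 1.47 ± 0.24 higher in KO cells at day 0 (limma adjusted p = 0.0375). Along the adherent course 9 of the 12 fell.

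Of 16 genes of other amino acid synthesis, 5 fell and 2 rose in WT cells, and 7 fell and 1 rose in KO cells. *Cth*, which makes cysteine, fell by 2.57 ± 0.43 in WT and by 3.17 ± 0.43 in KO cells, and by 0.35 ± 0.05 per day in the adherent culture. *Pck2*, a mitochondrial phosphoenolpyruvate carboxykinase counted in this list, fell by 1.42 ± 0.44 in WT and by 2.12 ± 0.44 in KO cells. *Bcat1*, a branched-chain aminotransferase, fell by 2.46 ± 0.33 in WT cells. *Glul*, which makes glutamine, rose by 1.02 ± 0.32 in WT cells. Of 5 tested genes of arginine handling, 2 fell in WT cells, *Ass1* and the arginine transporter *Slc7a1* (-2.01 ± 0.29), and *Slc7a1* alone fell in KO cells (-2.56 ± 0.29).

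Amino acid transporters went both ways. Of 11 tested, 5 fell and 2 rose in WT cells (median 0.33), and 6 fell and 1 rose in KO cells (median -0.71). The glutamine transporter *Slc1a5* fell by 1.39 ± 0.21 in WT and by 1.90 ± 0.21 in KO cells, whereas *Slc38a2* rose by 1.69 ± 0.31 and 1.06 ± 0.31. In the adherent culture 8 of 12 fell and 3 rose.

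Of 21 genes of cytosolic aminoacyl-tRNA synthetases and the tRNA exporter *Xpot*, 7 fell in WT cells (median -0.35), 12 in KO cells (median -0.66) and 18 in the adherent culture, and none rose in any of these 3 fits. *Aars* fell by 1.57 ± 0.16 in WT and by 1.50 ± 0.16 in KO cells, and *Cars* by 1.42 ± 0.24 and 1.55 ± 0.24. *Mars*, which overlaps *Ddit3*, fell by 1.01 ± 0.18 and 1.39 ± 0.18.

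Of 16 tested stress response factors and effectors of the eIF2alpha pathway, 8 fell in WT cells (median -0.90) and 9 in KO cells (median -1.10), with none rising. The chromatin protein gene *Nupr1* fell in both (-4.03 ± 0.65 in WT and -3.06 ± 0.65 in KO cells), as did the secreted stress factor *Gdf15* (-2.62 ± 0.58 and -2.27 ± 0.58). In the adherent culture 10 fell and 3 rose.

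Of 8 kinases, phosphatase subunits and related genes that act on eIF2alpha, 2 fell in both genotypes, the phosphatase subunits *Ppp1r15a* (-0.84 ± 0.24 in WT, -1.12 ± 0.24 in KO) and *Ppp1r15b* (-0.55 ± 0.16 and -0.76 ± 0.16). *Impact*, an inhibitor of the kinase Gcn2, rose by 0.96 ± 0.19 in WT cells. In the adherent culture 2 fell and 1 rose.

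The genes of the Atf6 and Xbp1 arms, ER chaperones together with the factors *Atf6* and *Xbp1* themselves, the branches of the unfolded protein response that do not run through eIF2alpha, had medians near those of all genes. Of 17, 2 fell and 2 rose in WT cells (median -0.09, against 0.08 for all genes), and 1 fell, *Atf6* (-0.66 ± 0.19), and 5 rose in KO cells (median 0.07). *Manf* rose by 0.59 ± 0.18 in WT and by 0.80 ± 0.18 in KO cells, and *Pdia6* by 0.47 ± 0.12 and 0.66 ± 0.12. *Calr* was 0.82 ± 0.12 lower in KO than in WT cells at day 0 (limma adjusted p = 0.0256). In the adherent culture 5 of the 17 fell and 1 rose, against 24.0% and 35.8% of all genes.

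Of 10 genes of 4E-BP, cap-binding, initiation and mTORC1 proteins, 2 fell in WT cells and 3 in KO cells. The mTORC1 genes *Mtor* and *Rptor* and the kinase gene *Rps6kb1*, which are in this list, passed in neither genotype. Besides *Eif4ebp1*, the genes that fell were *Eif4e2* (-0.96 ± 0.19 in WT, -0.70 ± 0.19 in KO) and, in KO cells, *Eif4ebp2* (-0.43 ± 0.13). The fall of *Eif4ebp1* at day 4 was the largest of this list in both genotypes.

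Genes with the most similar course to *Atf4* and *Asns* were ranked by Pearson's r of log2(FPKM + 1) over the 22 SFEB populations, which share libraries and one time course, among 12301 genes. For *Atf4* these were *Blvra* (0.927), *Ppp1r15a* (0.919), *Sdcbp2* (0.919), *Hcfc1r1* (0.913) and *H2afj* (0.912). Over the 15 adherent libraries the same pairs had r of 0.323, 0.855, 0.689, 0.651 and 0.666. For *Asns* they included *Tead4* (0.975), *Jak3* (0.972), *Htra1* (0.968) and *Itga5* (0.965), with r of 0.506 to 0.830 in the adherent culture.

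None of these nearest genes was another of the 10 members. For *Trib3* the nearest gene was *Acap1* (0.989, and 0.962 in the adherent culture), for *Ass1* *Capg* (0.979 and 0.967) and for *Eif4ebp1* *Anxa7* (0.973 and 0.858). The nearest to *Shmt2* was *Nup62cl* (0.929 and 0.901), to *Phgdh* *Pebp1* (0.892 and 0.568), to *Psat1* *2010002N04Rik* (0.884 and 0.624), to *Chac1* *Capn5* (0.855 and 0.650) and to *Ddit3* *Chd2* (0.961 and 0.211). The r of *Atf4* with the other members ran from 0.154 (*Phgdh*) to 0.866 (*Trib3*) over the populations, and from 0.630 (*Ddit3*) to 0.967 (*Chac1*) over the adherent libraries.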

How the data were processed

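RNA-seq values of 22 SFEB populations, 64 single cells, 15 adherent samples and 12 E14 samples were used. Per the labels, TopHat2 2.0.8b and Cufflinks 2.1.1 were run on mm9 (R1) or mm10 (E14), whereas the study's methods name earlier versions. For adherent and E14 cells the authors gave FPKM with no further correction stated. For populations the deposited FPKM had been corrected with ComBat, and 1256 values below 0 were set to 0 here. For cells the deposited scale is log10 of RPKM + 1, quantile normalized by the authors. A 0 h population without a sample type was placed by its title.

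The members and lists were chosen with earlier results of these data known. Genes named were all members, per list up to 3 rises and 3 falls in E14 cells with the largest changes that passed (not all are printed), *Fyn*, and the genes nearest to each member by r. *Pck2*, *Xpot*, *Xbp1*, *Mtor*, *Rptor* and *Rps6kb1* fall outside this rule and were named, after their values were seen, to say what their lists hold. Some genes that this rule names are not reported here. E14 and adherent values were fitted with limma 3.58.1 (R 4.3.3) on log2(FPKM + 1), which understates changes of low genes. A gene had to reach 1 FPKM in 3 libraries. A trended prior and two-sided tests with Benjamini-Hochberg adjustment at 0.05 were used, with 1 model of 4 groups for E14 and hour as a linear term for the adherent culture. The fits were tested on simulated data. Residuals of same-numbered libraries correlated at 0.199, 0.220 and 0.224 between WT days and at 0.136, 0.258 and 0.240 between genotypes at day 4. The numbers may thus pair these libraries. No such pattern held between KO days (0.00112 to 0.0899) or between genotypes at day 0 (-0.115 to 0.339). Background shares count all genes past the same rule. Alternatives covered the pseudocount, filter, normalization, variance prior, samples fitted and each library left out.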

Additional observations from a re-analysis of the deposited data

Results flagged for a closer look

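Among the 8 cells of each time, 20 of 80 gene and time sets (25.0%) had a cell set apart from the others by Dixon's gap test, where chance flags about 1 in 20. Many come from genes near 0 in the other cells. The levels here are log10(RPKM + 1), and no explanation was tested.

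For the synthesis enzymes, *Asns* was 0.8 in 1 cell of 0 h (others 2.26 to 2.96) and 1.92 in 1 cell of 144 h (others 0.595 to 1.03). The same cell of 60 h was low in *Phgdh*, at 0.644 (others 2.21 to 2.72), and in *Shmt2*, at 0.469 (others 2.04 to 2.85). *Shmt2* was 1.70 in 1 cell of 216 h (others 0.161 to 0.757). *Eif4ebp1* was 0.842 in 1 cell of 106 h (others 1.90 to 2.54).

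*Trib3* stood out high at 1.73 in a cell of 38 h, 0.347 at 84 h, 2.02 at 106 h and 0.0326 at 144 h. *Ddit3* did so at 1.93 in a cell of 60 h, 0.131 at 106 h, 0.0038 at 144 h and 2.75 at 216 h, the last with the other 7 cells between 0.253 and 1.4. *Chac1* did so at 2.15 in a cell of 9 h, 1.67 at 38 h, 1.37 at 60 h, 0.691 at 84 h, 0.496 at 106 h and 0.0917 at 216 h.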

How the results depend on the processing

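In the 58 combinations of comparison and alternative where the reported count of members called was above 0, the count stayed within 1.5 times of it, and in the other 56, between genotypes, 0 members were called. With the replicate block 7 members fell in WT and 7 in KO cells and 0 differed between genotypes, so the block changed no call of a member. Over all genes the replicate block gave 38 calls between genotypes at day 0, against 21, and 2 for the difference between changes, against 0. Leaving out single libraries gave 6 to 9 members in WT cells, 7 to 8 in KO cells and 8 to 9 in the adherent culture. In KO cells *Ddit3* passed in 5 settings (-1.36 to -1.65), and *Chac1* passed in WT cells under quantile normalization (-1.51). Over all genes, calls between genotypes at day 0 went from 21 to 161 without WT day 0 replicate 1 and to 2 in the fit on those groups alone. At day 4 they ranged from 5 to 32, against 9, and the difference between changes was called for 5 genes without WT day 0 replicate 1, against 0. The calls from day 0 to day 4 went from 3166 to 1843 in WT cells without WT day 0 replicate 2, and from 2370 to 1043 in KO cells without KO day 0 replicate 2. The cause was not tested.

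Signs changed only among differences that passed no test. Leaving out single libraries, the KO minus WT difference at day 0 ranged from -0.0712 to 0.371 for *Atf4* and from -0.34 to 0.31 for *Asns*. At day 4 it ranged from -0.29 to 0.25 for *Atf4*, from -0.30 to 0.15 for *Asns* and from -0.0383 to 0.166 for *Shmt2*. The difference between the changes of KO and WT cells ranged from -0.478 to 0.0827 for *Atf4*, from -0.43 to 0.22 for *Asns*, from -0.39 to 0.41 for *Trib3*, from -0.692 to 0.0601 for *Ddit3* and from -0.22 to 0.19 for *Eif4ebp1*. With equal totals, added after seeing the data, the day 4 difference of *Atf4* was -0.0318, and the difference between changes was -0.0494 for *Trib3* and -0.0562 for *Eif4ebp1*, which was -0.0656 under quantile normalization. The difference of *Phgdh* between cells of 216 and 0 h was 0.26 as the log10 of means, a scale on which *Trib3* was at -1.74 and *Chac1* at -1.9. With a pseudocount of 0.1 *Trib3* was at -4.59 in the first and -3.47 in the parallel SFEB series and *Chac1* at -2.28 in the first, and against the other series' 0 h library *Chac1* was at -2.35 in the first and -0.84 in the parallel series. Without read counts in the files, the limit that depth sets on low values was not computed.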

Other observations

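The 0 h libraries of both SFEB series can be set side by side, and *Chac1* differed most among the members, at 3.43 FPKM in the first and 7.30 FPKM in the parallel series, with *Trib3* at 9.79 and 15.1 FPKM and *Atf4* at 54.9 and 77.7 FPKM. Since each is 1 library, no spread is known.

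Among the 3 KO libraries of day 0, replicate 3 had the lowest *Asns* (226 FPKM), *Atf4* (156 FPKM) and *Ddit3* (14.5 FPKM) and the highest *Psat1*, *Phgdh*, *Trib3*, *Chac1* and *Eif4ebp1*, with *Phgdh* at 150 FPKM. This library was the lowest of the 3 for 36.8% of all genes and the highest for 45.6%.

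Among pairs of members over the 64 cells, centred on each time's mean, *Shmt2* and *Phgdh* had the highest r, 0.395, which 0.761% of all gene pairs reached. The median over the 45 pairs was 0.0676, against -0.0104 for all gene pairs. The cell numbered 16 of 216 h was highest of its time in *Asns* (2.36) and *Eif4ebp1* (2.44), while its *Phgdh* (1.16) and *Shmt2* (0.448) were within the range of the others.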
